A study of Mus musculus with 24 samples.

Results

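The genes described here are 34 genes of the endoplasmic reticulum (ER) that take part in chaperoning, folding and ER-associated degradation of proteins, out of 18171 genes in the deposited table of liver RNA. They were listed by symbol, each was found by its gene identifier, and all 34 passed the filter on low values that left 10532 genes for testing. RNA sequencing had been run on 24 liver libraries of C57BL/6 mice, 12 from mice that overexpressed L2 delta13 and 12 from wild-type (WT) mice. L2 delta13 is a name in use for a shortened splice form of lysyl oxidase like 2 (Loxl2), although the labels neither spell it out nor say which promoter or cell type drives it. A digit, 2 or 4, stands in each library's name for either genotype and is not explained, so that the libraries form 4 groups of 6, namely L2 delta13 set 2, WT set 2, L2 delta13 set 4 and WT set 4. No age, sex or treatment is given in the labels. Replicates were numbered 1 to 6 in set 2 and 7 to 12 in set 4 of each genotype. Nothing in the labels ties each library to a mouse of its own, and the p-values below reflect the spread among the libraries at hand, some of which may be technical.

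Proteins that are secreted or sit in membranes enter the ER through the Sec61 channel and are folded there by chaperones, lectins and disulfide isomerases. Chains that fail to fold are pulled back to the cytosol and degraded, a process called ER-associated degradation. When unfolded chains build up, the sensors Ern1 (IRE1), Eif2ak3 (PERK) and Atf6 start the unfolded protein response, in which the cleaved Atf6 and the spliced Xbp1 factor bind promoters of chaperone and degradation genes. The hepatocyte is a secretory cell that makes most plasma proteins, and its ER carries this load at all times.

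Gene expression is given as FPKM (fragments scaled by gene length and library size), a level per length that allows genes to be compared. FPKM holds no read total, so the depth of the libraries is unknown. The labels were checked against the overexpressed gene. Gm21451, an annotated near copy of Loxl2, stood between 40.6 and 266 FPKM in L2 delta13 livers and between 0.03 and 1.27 FPKM in WT livers, while Loxl2 itself stood between 0.83 and 2.26 FPKM in L2 delta13 livers and between 0.36 and 1.26 FPKM in WT livers. Reads of these 2 genes can be split between them. The value that 1 fragment adds to FPKM, judged from 164 low genes, stood between 1.022 and 1.3 times the common value in 8 libraries, of which 1 was L2 delta13 set 2, 1 WT set 2, 2 L2 delta13 set 4 and 4 WT set 4. The other 16 libraries hold only 2 WT livers of set 4. Only high values were set apart, so the 16 keep replicates 3 and 5 of WT set 2, at 0.958 and 0.974 times the common value. Both lay further from the common value than the lowest of the 8 libraries. Counts of calls are given with and without these 8 libraries.

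Summed FPKM of 8 hepatocyte markers lay between 47020 and 63700 in L2 delta13 livers and between 56250 and 74000 in WT livers, with 1 of the 8 called higher and 1 lower. Of the markers of other liver cells, 3 of 7 for Kupffer cells, 5 of 8 for sinusoidal endothelium and 1 of 8 for stellate cells were called higher in L2 delta13 livers and none was called lower. Among all genes 25.9% were called higher and 4.86% lower in that comparison. Of the markers tested, 0 of 3 for cholangiocytes and 0 of 3 for neutrophils were called. Markers of B and plasma cells (0 of 2) and of T and NK cells (0 of 1) were not called either. The summed endothelial markers lay between 107 and 230 FPKM in L2 delta13 set 2 and between 45.2 and 118 FPKM in WT set 2, against 41.6 to 90.5 FPKM in L2 delta13 set 4 and 32.6 to 93.1 FPKM in WT set 4. Those of Kupffer cells lay between 77.8 and 164 FPKM in L2 delta13 set 2 and between 54.4 and 130.3 FPKM in WT set 2, and those of stellate cells between 121 and 246 FPKM in L2 delta13 set 2 and between 71.6 and 133 FPKM in WT set 2. In set 4 these sums were 36.0 to 139.8 FPKM in L2 delta13 and 19.5 to 87.1 FPKM in WT for Kupffer cells, and 59.7 to 97.9 FPKM in L2 delta13 and 61.6 to 85.2 FPKM in WT for stellate cells. Their part in the results below was not tested. Replicate 3 of L2 delta13 set 2 held 123 FPKM of cholangiocyte markers and 25.1 FPKM of B and plasma cell markers, and replicate 6 of WT set 2 followed with 74.5 and 9.2 FPKM. The same replicate 3 had the highest sums of all libraries for Kupffer, endothelial, stellate, T and NK cell and neutrophil markers. It thus sets the upper ends of the L2 delta13 set 2 ranges above, and its hepatocyte sum was the lowest of all libraries. Replicate 1 of L2 delta13 set 2 held 116.5 FPKM of exocrine pancreas markers, which reached at most 0.82 FPKM in any other library. The cholangiocyte marker Cftr, the plasma cell marker Tnfrsf17 and the pancreas marker Amy2b stayed below 0.5 FPKM in all libraries.

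Promoter sequence is shown for the members that carry a motif bound in the unfolded protein response, because Atf6 and Xbp1 are known to act through them. The ER stress response element (ERSE) reads CCAAT, 9 bases of any kind and CCACG, the element ERSE-II reads ATTGG, 1 base of any kind and CCACG, and the core of the UPRE, the element bound by spliced Xbp1, reads TGACGTGG. Both strands were searched in windows from 250 bases before to 50 bases after the annotated start, from RefSeq on GRCm38.p6, which were at hand for 29 of the 34 members, all but Hyou1, Sil1, Manf, Sec61a1 and Derl1. Stretches are written 5′ to 3′ along the strand of the gene, with the match and its spacer in capitals and 25 bases on either side. The stretch of Hsp90b1 holds 2 ERSE, while those of Txndc5 and Txndc11 hold a UPRE core, that of Herpud1 an ERSE-II and each of the others 1 ERSE. Dnajb11 had an ERSE-II after its start, which is not printed.
Hspa5 (chr2:34772000-34772068, plus strand): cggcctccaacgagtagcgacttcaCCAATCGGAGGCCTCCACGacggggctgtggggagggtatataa
Dnajc3 (chr14:118937802-118937870, plus strand): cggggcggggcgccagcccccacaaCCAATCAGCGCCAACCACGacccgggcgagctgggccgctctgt
Creld2 (chr15:88819495-88819563, plus strand): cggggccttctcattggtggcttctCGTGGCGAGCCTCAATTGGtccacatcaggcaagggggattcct
Hsp90b1 (chr10:86705508-86705681, minus strand): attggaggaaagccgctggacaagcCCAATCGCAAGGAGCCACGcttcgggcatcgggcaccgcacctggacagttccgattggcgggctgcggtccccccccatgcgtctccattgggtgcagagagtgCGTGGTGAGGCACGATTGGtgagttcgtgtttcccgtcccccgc
Calr (chr8:84847050-84847118, minus strand): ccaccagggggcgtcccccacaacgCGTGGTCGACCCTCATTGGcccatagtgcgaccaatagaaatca
Canx (chr11:50325775-50325843, minus strand): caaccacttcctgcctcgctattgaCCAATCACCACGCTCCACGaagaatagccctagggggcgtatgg
Pdia6 (chr12:17266466-17266534, plus strand): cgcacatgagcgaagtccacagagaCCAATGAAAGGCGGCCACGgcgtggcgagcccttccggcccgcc
Txndc5 (chr13:38528020-38528077, minus strand): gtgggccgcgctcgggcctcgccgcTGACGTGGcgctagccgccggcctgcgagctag
Txndc11 (chr16:11134602-11134659, minus strand): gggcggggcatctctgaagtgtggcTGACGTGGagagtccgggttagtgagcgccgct
Derl3 (chr10:75893217-75893285, plus strand): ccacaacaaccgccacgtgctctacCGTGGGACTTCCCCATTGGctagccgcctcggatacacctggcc
Herpud1 (chr8:94386352-94386412, plus strand): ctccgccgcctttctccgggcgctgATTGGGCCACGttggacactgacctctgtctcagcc
Syvn1 (chr19:6046507-6046575, plus strand): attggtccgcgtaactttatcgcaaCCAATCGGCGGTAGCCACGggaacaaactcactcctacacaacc

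Over both sets most of the chaperones were higher in L2 delta13 livers than in WT livers. Of the 34 members 21 rose, 1 fell and 12 were not called, by limma with a Benjamini-Hochberg adjusted p under 0.05 over all genes tested, where 25.9% of all genes were called higher and 4.86% lower. The median log2 difference of the members was 0.40, beside 0.12 for all genes tested, on the log2(FPKM + 1) scale on which every log2 difference and fold here is given. The 21 were the HSP70 system of the ER (8 of 9 members), its HSP90 (1 of 1), the lectin cycle (4 of 4), isomerases (4 of 6) and degradation genes (4 of 9), while 0 of the 5 translocation genes were called. Herpud1 was the member that fell. Median-of-ratios scaling of the libraries put the median of all genes at 0.00 instead of 0.12 and gave 14 members higher and 4 lower, where 11.5% and 11.1% of all genes were called. Quantile normalization gave 16 higher and 3 lower, where 12.4% and 10.2% of all genes were called. Within the 16 libraries 16 members were higher, where 14.9% of all genes were, and the calls of Hyou1, Sil1, Canx, Uggt1 and Txndc5 were lost. In bulk tissue fewer cells of a type and less RNA per cell cannot be told apart.

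**Figure D1:**
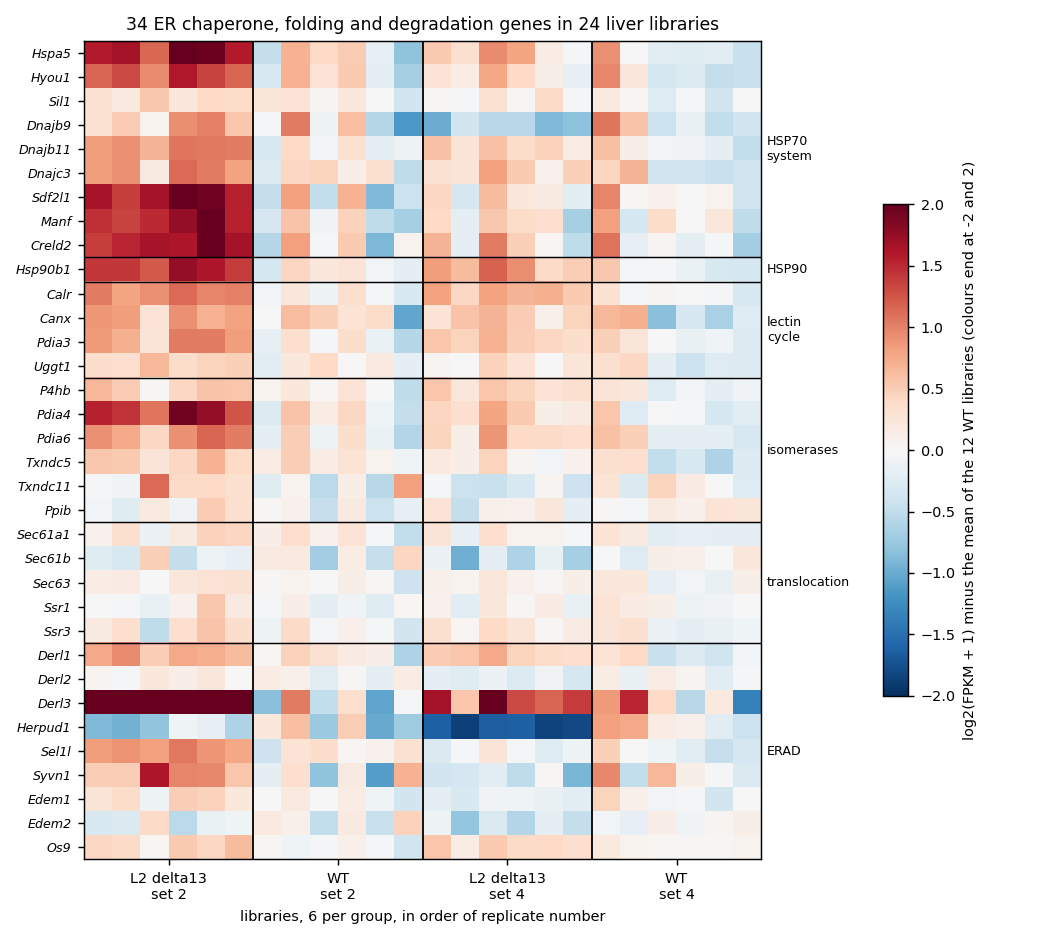
Each row is 1 of the 34 members, grouped by role, and each column is 1 of the 24 libraries, in the order L2 delta13 set 2, WT set 2, L2 delta13 set 4 and WT set 4. Colour is log2(FPKM + 1) minus the mean of the 12 WT libraries, with colours ending at -2 and 2. The 6 libraries of L2 delta13 set 2 are the reddest block, and the Herpud1 row is darkest blue in the 6 libraries of L2 delta13 set 4.

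In the HSP70 system 8 of 9 members rose. Hspa5 (BiP, gene 14828) is the HSP70 of the ER lumen and is known to hold the stress sensors inactive. Below, a group's lowest, median and highest library are given in this order. Hspa5 stood at 718, 1000.5 and 1413 FPKM in L2 delta13 set 2 against 185, 358 and 523 FPKM in WT set 2, and at 318, 435 and 625 FPKM in L2 delta13 set 4 against 238, 278 and 612 FPKM in WT set 4. The groups did not overlap in set 2, with all 6 L2 delta13 libraries above all 6 WT libraries, and did overlap in set 4. The log2 difference over both sets was 1.07 ± 0.21 (± SE, as for each log2 difference here, limma adjusted p = 0.00052), a 2.1-fold rise, with 11 of 12 L2 delta13 libraries above the mean of the WT livers in the same set.

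Of the J proteins, which feed clients to Hspa5, Dnajb11 and Dnajc3 rose. Dnajb11 (ERdj3, gene 67838), which delivers unfolded chains, stood at 64.5, 78.9 and 84.8 FPKM in L2 delta13 set 2 against 32.2, 37.8 and 52.9 FPKM in WT set 2, and at 44.5, 53.4 and 60.6 FPKM in L2 delta13 set 4 against 28.0, 38.0 and 61.2 FPKM in WT set 4. Dnajc3 (p58IPK, gene 100037258), a co-chaperone also known as an inhibitor of Eif2ak3, stood at 41.3, 67.3 and 80.1 FPKM in L2 delta13 set 2 against 25.2, 42.5 and 49.4 FPKM in WT set 2, and at 38.6, 47.9 and 64.6 FPKM in L2 delta13 set 4 against 26.2, 27.4 and 58.3 FPKM in WT set 4. Dnajb11 did not overlap between genotypes in set 2, whereas Dnajc3 overlapped in both sets. Their log2 differences over both sets were 0.67 ± 0.11 for Dnajb11 and 0.62 ± 0.15 for Dnajc3 (limma adjusted p = 0.000141 and 0.00265), with each of the 12 L2 delta13 libraries above its set's WT mean for both genes. Dnajb9 (ERdj4, gene 27362), which keeps Ern1 in check through Hspa5, was the member of the system that was not called. Its FPKM was 34.8, 48.3 and 67.4 in L2 delta13 set 2 against 14.46, 31.7 and 69.1 in WT set 2, and 16.2, 20.3 and 25.3 in L2 delta13 set 4 against 23.2, 27.5 and 70.7 in WT set 4, and the log2 difference over both sets was -0.07 ± 0.24 (limma adjusted p = 0.865).

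Exchange factors renew the cycle of Hspa5. Hyou1 (GRP170, gene 12282), a large HSP70 relative that acts as such a factor, stood at 71.3, 88.2 and 113 FPKM in L2 delta13 set 2 against 22.7, 38.4 and 60.1 FPKM in WT set 2, and at 32.5, 42.6 and 63.0 FPKM in L2 delta13 set 4 against 26.0, 29.3 and 71.6 FPKM in WT set 4. Its genotypes were apart in set 2 and overlapped in set 4, and the log2 difference over both sets was 0.76 ± 0.18 (limma adjusted p = 0.00301), and 0.63 and not called within the 16 libraries (limma adjusted p = 0.0618). The other exchange factor, Sil1 (gene 81500), averaged 34.96 ± 4.69 FPKM in L2 delta13 and 29.9 ± 4.69 FPKM in WT livers (SD, n = 12 each), a log2 difference of 0.22 ± 0.082 (limma adjusted p = 0.04). That call of Sil1 was lost in 10 of the 24 fits that left out 1 library, at adjusted p between 0.0525 and 0.0754, as well as with both scalings and within the 16 libraries.

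The remaining members of the system, Manf, Creld2 and Sdf2l1, are small soluble factors. Manf (gene 74840), a secreted factor that binds Hspa5, stood at 116, 130.3 and 184 FPKM in L2 delta13 set 2 against 27.8, 38.9 and 66.5 FPKM in WT set 2, and at 27.8, 57.4 and 65.0 FPKM in L2 delta13 set 4 against 30.9, 48.3 and 79.8 FPKM in WT set 4. Creld2 (gene 76737), an ER protein with isomerase activity, stood at 149, 176 and 271 FPKM in L2 delta13 set 2 against 29.7, 56.95 and 100.2 FPKM in WT set 2, and at 39.0, 67.8 and 116 FPKM in L2 delta13 set 4 against 34.7, 52.4 and 119.7 FPKM in WT set 4. Sdf2l1 (gene 64136), which works with Dnajb11 to hold chains in solution, stood at 60.7, 73.6 and 95.8 FPKM in L2 delta13 set 2 against 11.9, 16.3 and 40.9 FPKM in WT set 2, and at 17.7, 26.1 and 35.9 FPKM in L2 delta13 set 4 against 17.1, 23.6 and 45.7 FPKM in WT set 4. All 6 L2 delta13 libraries of set 2 lay above all WT libraries for each of these genes, and in set 4 the ranges of the genotypes were largely shared. Over both sets the log2 differences were 0.87 ± 0.23 for Manf, 0.97 ± 0.25 for Creld2 and 0.92 ± 0.25 for Sdf2l1 (limma adjusted p = 0.00668, 0.00478 and 0.00764).

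**Figure D2:**
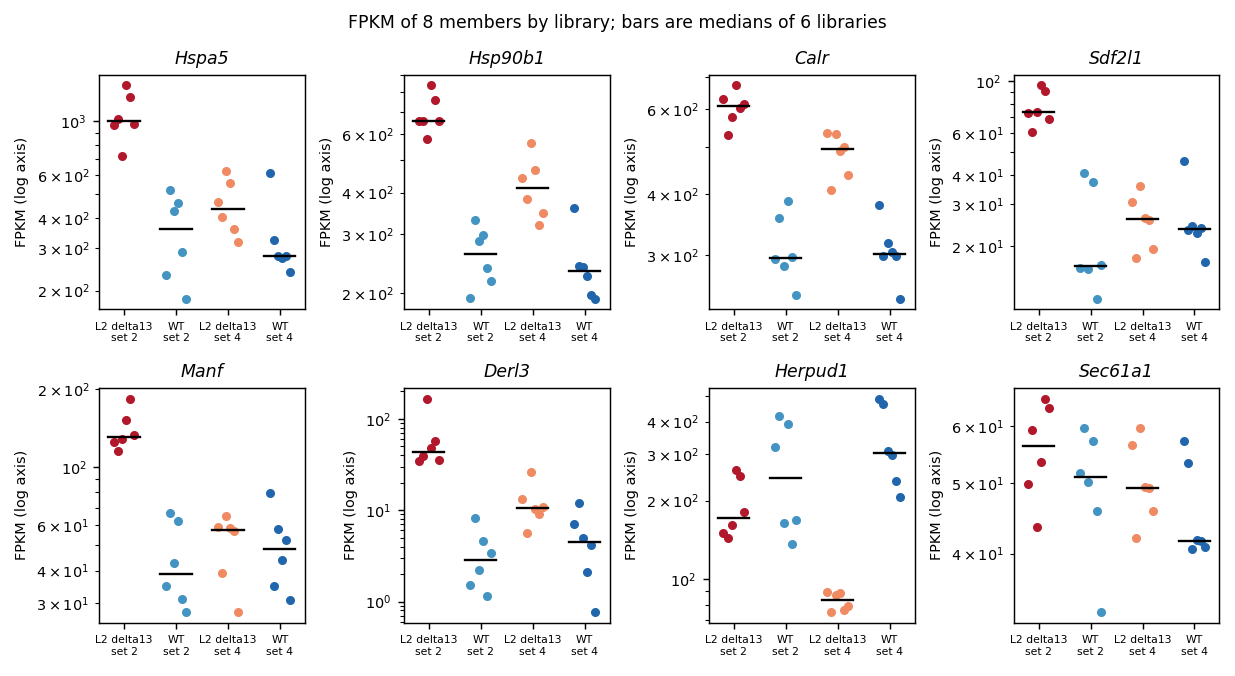
Each point is the FPKM of 1 library on a log axis for 8 members, with the 4 groups side by side and a bar at the median of 6 libraries. Hspa5, Hsp90b1, Calr, Sdf2l1, Manf and Derl3 lie apart between genotypes in set 2, Calr also in set 4, Herpud1 lies lower in L2 delta13 set 4 than in any other group, and Sec61a1 overlaps throughout.

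Hsp90b1 (GRP94, gene 22027), the HSP90 of the ER lumen, had a log2 difference of 1.11 ± 0.13 over both sets (limma adjusted p = 1.61e-06). It stood at 580.1, 656 and 839 FPKM in L2 delta13 set 2 against 193, 262 and 330.2 FPKM in WT set 2, and at 320.3, 413 and 562 FPKM in L2 delta13 set 4 against 193, 232 and 359 FPKM in WT set 4. Genotypes were fully apart in set 2, while in set 4 replicate 7 of WT, at 359 FPKM, lay above 2 of the 6 L2 delta13 libraries.

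In the lectin cycle, which holds glycoproteins until their sugars are trimmed, all 4 members rose. Calr (calreticulin, gene 12317), its soluble lectin, had the smallest p of all members over both sets. Calr stood at 531, 609 and 672 FPKM in L2 delta13 set 2 against 248, 296 and 388 FPKM in WT set 2, and at 408, 495.4 and 536 FPKM in L2 delta13 set 4 against 244, 301 and 380.0 FPKM in WT set 4. All L2 delta13 libraries lay above all WT libraries of their set in set 2 and in set 4. No other member did so. Across sets, all 12 L2 delta13 libraries of Calr lay above all 12 WT libraries, as for 0.617% of all genes. No member had all 12 L2 delta13 libraries below all 12 WT libraries, as 0.0949% of all genes did. The share of all genes that lay apart within each of the sets was not taken. The log2 difference was 0.81 ± 0.086, a 1.76-fold rise (limma adjusted p = 6.21e-07), and Calr was called higher over both sets under each of the alternatives tried.

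Pdia3 (ERp57, gene 14827), the disulfide isomerase that docks on Calr, stood at 158, 237 and 273 FPKM in L2 delta13 set 2 against 89.1, 124 and 169.5 FPKM in WT set 2, and at 168, 184 and 214 FPKM in L2 delta13 set 4 against 109, 129 and 183 FPKM in WT set 4. The medians were higher in L2 delta13 in both sets, with overlap at the edges, and the log2 difference over both sets was 0.64 ± 0.11 (limma adjusted p = 0.000198). Canx (calnexin, gene 12330), the membrane-bound lectin, averaged 68.9 ± 12.3 FPKM in L2 delta13 and 48.8 ± 19.1 FPKM in WT livers (SD, n = 12 each). Uggt1 (gene 320011), the glucosyltransferase that sends unfolded glycoproteins back to the lectins, averaged 8.36 ± 1.31 FPKM in L2 delta13 and 6.65 ± 1.6 FPKM in WT livers (SD, n = 12 each). Their log2 differences were 0.58 ± 0.18 and 0.31 ± 0.098 (limma adjusted p = 0.0149 and 0.0196), and both calls were lost with either scaling and within the 16 libraries.

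Among the isomerases Pdia4, Pdia6, P4hb and Txndc5 rose and Txndc11 and Ppib were not called. Pdia4 (ERp72, gene 12304) stood at 134, 182 and 246 FPKM in L2 delta13 set 2 against 45.4, 65.5 and 94.8 FPKM in WT set 2, and at 69.0, 83.5 and 112 FPKM in L2 delta13 set 4 against 50.05, 58.4 and 94.7 FPKM in WT set 4. Pdia6 (P5, gene 71853), known to damp Ern1, stood at 126, 179 and 212 FPKM in L2 delta13 set 2 against 62.4, 86.6 and 133 FPKM in WT set 2, and at 102, 124 and 175 FPKM in L2 delta13 set 4 against 75.6, 82.8 and 142 FPKM in WT set 4. Pdia4 was apart between genotypes in set 2, and Pdia6 overlapped there and in set 4. Over both sets the log2 difference was 0.95 ± 0.16 for Pdia4 and 0.65 ± 0.14 for Pdia6 (limma adjusted p = 0.000133 and 0.00103).

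P4hb (PDI, gene 18453), the most abundant of these isomerases by FPKM, stood at 384, 547 and 599 FPKM in L2 delta13 set 2 against 264, 389.7 and 455 FPKM in WT set 2, and at 439, 491 and 556 FPKM in L2 delta13 set 4 against 315, 362 and 452 FPKM in WT set 4. Its rise was smaller, at a log2 difference of 0.43 ± 0.092 (limma adjusted p = 0.00126), and the call was lost with median-of-ratios scaling. Txndc5 (gene 105245), a thioredoxin-fold isomerase, averaged 58.1 ± 9.4 FPKM in L2 delta13 and 47.5 ± 11.3 FPKM in WT livers (SD, n = 12 each), with a log2 difference of 0.31 ± 0.10 (limma adjusted p = 0.0222) that was not called with either scaling or within the 16 libraries. Txndc11 (gene 106200), a relative that serves degradation, ranged from 11.2 to 35.4 FPKM in L2 delta13 and from 10.3 to 28.3 FPKM in WT livers. Ppib (cyclophilin B, gene 19035), a proline isomerase, ranged from 128 to 256 FPKM in L2 delta13 and from 130.4 to 216 FPKM in WT livers. Neither was called (limma adjusted p = 0.855 and 0.725).

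None of the 5 translocation genes was called by limma over both sets, and at an unadjusted p under 0.05 1 was higher (Sec63) and 1 was lower (Sec61b), where 34.6% and 7.4% of all genes were. Sec61a1 (gene 53421), the pore of the channel, stood at 43.5, 56.4 and 65.5 FPKM in L2 delta13 set 2 against 33.2, 51.0 and 59.7 FPKM in WT set 2, and at 42.0, 49.3 and 59.6 FPKM in L2 delta13 set 4 against 40.6, 41.7 and 57.1 FPKM in WT set 4. Its log2 difference was 0.16 ± 0.094 (limma adjusted p = 0.209), with groups that overlapped in both sets. Sec61b (gene 66212), a small subunit of the channel, ranged from 35.1 to 98.9 FPKM in L2 delta13 and from 43.2 to 95.3 FPKM in WT livers, a log2 difference of -0.30 ± 0.13 (limma adjusted p = 0.0961) that was called lower with both scalings. Sec63 (gene 140740), the J protein that brings Hspa5 to the channel, had a log2 difference of 0.14 ± 0.068, and Ssr1 (gene 107513) and Ssr3 (gene 67437), subunits of the translocon-associated protein complex, had 0.06 ± 0.079 and 0.21 ± 0.10 (limma adjusted p = 0.11, 0.585 and 0.131). FPKM in all libraries lay between 15.3 and 25.6 for Sec63, between 15.1 and 26.7 for Ssr1 and between 40.6 and 87.0 for Ssr3.

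The degradation genes moved in both directions. Derl3 (gene 70377), a derlin of the retrotranslocation channel that is known as a target of the unfolded protein response, had the largest log2 difference of the members. Derl3 stood at 34.9, 43.4 and 167 FPKM in L2 delta13 set 2 against 1.16, 2.81 and 8.26 FPKM in WT set 2, and at 5.63, 10.6 and 26.4 FPKM in L2 delta13 set 4 against 0.77, 4.54 and 12.02 FPKM in WT set 4. The genotypes were apart in set 2, where the highest L2 delta13 library, replicate 3, was the one with the highest sums of cholangiocyte, B cell and other non-hepatocyte liver markers, and overlapped in set 4. The log2 difference was 2.52 ± 0.40 over both sets (limma adjusted p = 5.96e-05) and 2.30 without that library (limma adjusted p = 4.64e-05). In set 2 it was 3.77 ± 0.44, or 13.6-fold, and 3.44, or 10.8-fold, without that library.

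Herpud1 (gene 64209), a ubiquitin-like membrane protein that assembles the degradation complex and is itself known as a target of the response, was the member that fell. It stood at 144, 171 and 261 FPKM in L2 delta13 set 2 against 137, 245 and 421 FPKM in WT set 2, and at 75.2, 83.2 and 89.4 FPKM in L2 delta13 set 4 against 207, 304 and 490.2 FPKM in WT set 4. The genotypes overlapped in set 2, and in set 4 all 6 L2 delta13 libraries lay below all WT libraries, as did 1.70% of all genes there. The log2 difference over both sets was -1.16 ± 0.24 (limma adjusted p = 0.000747), with 12 of 12 L2 delta13 libraries below their set's WT mean, and Herpud1 remained called lower with both scalings and within the 16 libraries.

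Of the other derlins Derl1 (gene 67819) rose and Derl2 (gene 116891) was not called. Derl1 stood at 49.95, 59.3 and 68.6 FPKM in L2 delta13 set 2 against 22.5, 39.2 and 49.0 FPKM in WT set 2, and at 44.5, 49.6 and 60.2 FPKM in L2 delta13 set 4 against 25.6, 31.5 and 46.8 FPKM in WT set 4. It was apart between genotypes in set 2 and had a log2 difference of 0.61 ± 0.11 over both sets (limma adjusted p = 0.000229). Derl2 stood at 22.3, 24.4 and 27.0 FPKM in L2 delta13 set 2 against 19.6, 23.99 and 25.6 FPKM in WT set 2. In set 4 it stood at 17.8, 19.7 and 21.7 FPKM in L2 delta13 set 4 against 19.5, 23.2 and 25.5 FPKM in WT set 4. It overlapped between genotypes in both sets, with a log2 difference of -0.05 ± 0.070 (limma adjusted p = 0.597), and was called lower with median-of-ratios scaling.

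The ligase complex that marks retrotranslocated chains is built from Sel1l, Syvn1 and the lectins Os9 and Edem1. Os9 (gene 216440), which hands trimmed glycoproteins to Sel1l, stood at 78.8, 103 and 119 FPKM in L2 delta13 set 2 against 58.3, 74.7 and 82.1 FPKM in WT set 2, and at 85.4, 101 and 114 FPKM in L2 delta13 set 4 against 77.8, 79.8 and 88.5 FPKM in WT set 4. The log2 difference was 0.40 ± 0.071 (limma adjusted p = 0.000219) in 12 of 12 libraries, and was not called with median-of-ratios scaling. Sel1l (gene 20338), the adaptor, stood at 40.0, 42.5 and 48.9 FPKM in L2 delta13 set 2 against 16.9, 26.1 and 29.4 FPKM in WT set 2. In set 4 it stood at 18.6, 21.8 and 27.8 FPKM in L2 delta13 set 4 against 16.3, 20.7 and 32.4 FPKM in WT set 4. All L2 delta13 libraries of set 2 lay above those of WT, while set 4 overlapped, and the log2 difference over both sets was 0.40 ± 0.12 (limma adjusted p = 0.0155), a call that was lost with both scalings. Syvn1 (HRD1, gene 74126), the ubiquitin ligase itself, stood at 73.3, 89.6 and 162 FPKM in L2 delta13 set 2 against 23.6, 52.0 and 84.2 FPKM in WT set 2. In set 4 it stood at 27.0, 40.3 and 52.8 FPKM in L2 delta13 set 4 against 36.6, 53.3 and 102 FPKM in WT set 4. It overlapped between genotypes in both sets and was not called over both (log2 0.23 ± 0.25, limma adjusted p = 0.508). The mannose-trimming factors Edem1 (gene 192193) and Edem2 (gene 108687) were not called either, with log2 differences of 0.06 ± 0.097 and -0.28 ± 0.11 (limma adjusted p = 0.692 and 0.0605), and Edem2 was called lower with both scalings. Edem1 stood at 18.0, 24.3 and 27.6 FPKM in L2 delta13 set 2 against 14.8, 19.2 and 22.1 FPKM in WT set 2. In set 4 it stood at 15.5, 17.0 and 18.3 FPKM in L2 delta13 set 4 against 14.8, 19.1 and 26.7 FPKM in WT set 4. FPKM of Edem2 over all libraries ranged from 13.7 to 33.6, and both genes overlapped between genotypes in set 2.

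The genotypes were also compared within each set. In set 2 limma called 18 members higher and 0 lower, also 0 lower at an unadjusted p under 0.05 against 3.86% of all genes, where 13.0% of all genes were called higher and 2.13% lower, and the members' median log2 difference was 0.60, beside 0.16 for all genes. The largest were Derl3 (3.77 ± 0.44), Sdf2l1 (1.83 ± 0.25), Manf (1.70 ± 0.24), Creld2 (1.69 ± 0.29), Hspa5 (1.65 ± 0.25), Pdia4 (1.45 ± 0.18) and Hsp90b1 (1.42 ± 0.16), with limma adjusted p between 6.1e-06 and 0.000589. Syvn1, which was not called over both sets, was called in set 2 at 1.003 ± 0.28 (limma adjusted p = 0.0184), but not with median-of-ratios scaling (0.82, limma adjusted p = 0.0547) or without replicates 1 and 3 of L2 delta13 set 2 (0.90, limma adjusted p = 0.0632). All 6 L2 delta13 libraries lay above all 6 WT libraries for 12 members in set 2, where 5.44% of all genes did so. These were Hspa5, Hyou1, Dnajb11, Sdf2l1, Manf, Creld2, Hsp90b1, Calr, Pdia4, Derl1, Derl3 and Sel1l. Median-of-ratios scaling left 13 of the 18 calls and 0 members lower (2 at an unadjusted p under 0.05, against 10.5% of all genes), where 3.54% of all genes were higher and 3.70% lower. Quantile normalization left 14 and 0 (1 at an unadjusted p under 0.05, against 10.7%), where 3.92% were higher and 3.93% lower. Within the 16 libraries 21 members were higher, where 19.0% of all genes were.

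In set 4 limma called 5 members higher, namely Hsp90b1, Calr, P4hb, Derl1 and Os9, and 1 lower, Herpud1, where 10.3% of all genes were called higher and 2.97% lower. The members' median log2 difference was 0.22, beside 0.08 for all genes. Hsp90b1 had 0.80 ± 0.16 and Calr 0.66 ± 0.12 (limma adjusted p = 0.00241 and 0.000875), while Derl1 had 0.58 ± 0.16, P4hb 0.41 ± 0.13 and Os9 0.32 ± 0.10 (limma adjusted p = 0.0177, 0.0431 and 0.0341). Calr was the member with all L2 delta13 libraries above all WT libraries in set 4, where 4.86% of all genes did so. Herpud1 had -1.94 ± 0.26, or 0.262 times the WT level (limma adjusted p = 4.6e-05). Hspa5 had 0.48 ± 0.25 and was not called (limma adjusted p = 0.199), and Derl3 had 1.27 ± 0.44 (limma adjusted p = 0.0571).

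The 5 calls upward in set 4 changed with the libraries used. Within the 16 libraries, which keep 4 L2 delta13 and 2 WT livers of set 4, 0 members were called higher and 2 lower, Dnajb9 and Herpud1, where 1.07% of all genes were higher and 1.84% lower. At an unadjusted p under 0.05 2 were higher and 4 lower, where 7.13% and 12.7% of all genes were. The 2 WT livers kept are replicates 7 and 8, which have the highest member sums of WT set 4, at 4178 and 3270 FPKM. The members' median log2 difference there was -0.13, beside -0.06 for all genes. There Calr had a log2 difference of 0.47 (limma adjusted p = 0.118), Hsp90b1 0.56 (limma adjusted p = 0.183) and Herpud1 -2.53 (limma adjusted p = 0.00335). Median-of-ratios scaling gave 2 members higher and 4 lower in set 4, where 5.99% of all genes were higher and 6.07% lower, and quantile normalization gave 3 and 3, where 6.69% and 5.17% were. Leaving out single libraries gave between 2 and 11 members called higher in set 4, with 11 without WT replicate 8 (19.2% of all genes), 10 without WT replicate 7 (12.5%), and 2 without WT replicate 9 (5.95%) or 11 (5.45%). Array weights, which count deviating libraries less, gave 18 members higher and 7 lower, where 33.4% of all genes were higher and 16.8% lower.

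**Figure D3:**
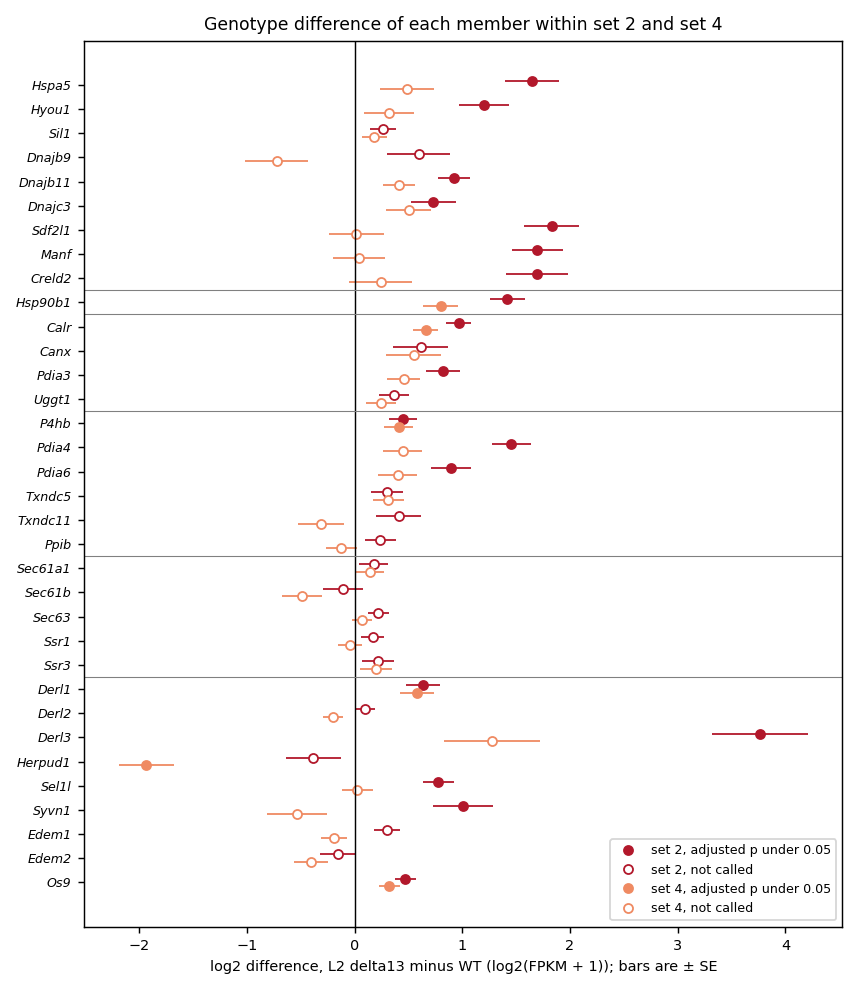
Log2 difference of L2 delta13 minus WT on the log2(FPKM + 1) scale for each member, in set 2 (dark red) and in set 4 (orange), with bars of ± SE, filled where limma's adjusted p was under 0.05. All members but Txndc5 lie further right in set 2 than in set 4, and Herpud1 lies at -1.94 in set 4.

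The difference between these effects was tested itself. The genotype effect in set 4 minus that in set 2 was called lower for 2 members, Sdf2l1 at -1.81 ± 0.36 and Manf at -1.66 ± 0.34 (limma adjusted p = 0.0368 for both), and higher for 0, where 0.123% and 0.0285% of all genes were called. At an unadjusted p under 0.05 it was lower for 16 members and higher for 0, where 5.52% and 1.58% of all genes were. Sdf2l1 had a genotype effect of 0.02 ± 0.25 in set 4 and 1.83 ± 0.25 in set 2, and Manf had 0.04 ± 0.24 in set 4 and 1.70 ± 0.24 in set 2. For Derl3 the difference was -2.49 ± 0.63 and for Herpud1 -1.55 ± 0.36, which did not pass (limma adjusted p = 0.157 and 0.11). The call was lost for Sdf2l1 in 14 and for Manf in 16 of the 24 fits that left out 1 library, and both were lost within the 16 libraries and without replicates 1 and 3 of L2 delta13 set 2.

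The sets were also compared within each genotype. In L2 delta13 livers, set 4 was lower than set 2 for 15 members and higher for 0 (19 and 0 at an unadjusted p under 0.05, against 21.2% and 2.13% of all genes), where limma called 5.51% of all genes lower and 0.551% higher. The median log2 difference was -0.37 for members and -0.15 for all genes. The 8 with the smallest p were Sel1l (-0.95 ± 0.14), Manf (-1.48 ± 0.24), Sdf2l1 (-1.56 ± 0.25), Pdia4 (-1.11 ± 0.18), Creld2 (-1.43 ± 0.29), Hspa5 (-1.23 ± 0.25), Derl3 (-2.14 ± 0.44) and Hsp90b1 (-0.73 ± 0.16), with limma adjusted p between 0.000485 and 0.0104. Herpud1 was lower too, at -1.16 ± 0.26 (limma adjusted p = 0.0107). For 14 members all 6 L2 delta13 libraries of set 4 lay below all 6 of set 2, where 4.97% of all genes did so. P4hb, Os9 and Ssr3 had log2 differences of -0.06 ± 0.13, -0.01 ± 0.10 and -0.01 ± 0.15 and were not called (limma adjusted p = 0.8, 0.976 and 0.978). Median-of-ratios scaling left 9 of the 15 calls.

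In WT livers limma called 0 members in either direction between set 4 and set 2, where 0.0855% of all genes were called higher and 0.104% lower. At an unadjusted p under 0.05, 1 was lower (Txndc5) and 0 were higher, where 6.67% and 1.41% of all genes were. Array weights called 6 members lower there, Dnajc3, Canx, Uggt1, Txndc5, Sec61a1 and Derl1, where 10.8% of all genes were lower. The members' median log2 difference was 0.01, beside -0.08 for all genes. Hspa5 had -0.06 ± 0.25 and Herpud1 0.39 ± 0.26 (limma adjusted p = 0.962 and 0.704). The comparisons of genotype within a set and of set within a genotype share libraries and are not independent of each other.

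Summed over the 34 members, FPKM lay between 4634 and 6190 in L2 delta13 set 2 and between 2241 and 3841 in WT set 2. The sums lay between 3007 and 4246 in L2 delta13 set 4 and between 2467 and 4178 in WT set 4. The members thus took 0.728% to 1.125% of all FPKM in L2 delta13 set 2 and 0.321% to 0.636% in WT set 2, against 0.502% to 0.714% in L2 delta13 set 4 and 0.359% to 0.692% in WT set 4. The groups were apart in set 2 and shared most of their range in set 4. For 31 of the 34 members the highest of all 24 libraries was one of L2 delta13 set 2. The share of all genes with this trait was not taken, so the count cannot be called particular to the members.

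Within a group a few libraries held the extremes of many members. In WT set 4, replicate 7 held the highest value of its group for 22 of the 34 members, with a summed 4178 FPKM, against 2467 to 3270 FPKM in the other 5 libraries. In WT set 2, replicate 2 was the highest for 20 members and replicate 6, 1 of the libraries with a high value per fragment, the lowest for 19. In L2 delta13 set 4, replicate 9 was the highest for 22 members, and in L2 delta13 set 2, replicate 3 was the lowest for 19. The ratio of the highest to the lowest library of a group had a median over members of 1.58 in L2 delta13 set 2, 1.93 in WT set 2, 1.48 in L2 delta13 set 4 and 1.87 in WT set 4. Derl3 had the largest ratio in each group, up to 15.6 in WT set 4, where its lowest library stood at 0.77 FPKM.

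The wider machinery around the members was followed in 6 further lists. Of 30 other ER folding factors tested 7 were higher and 0 lower in L2 delta13 livers over both sets (median log2 difference 0.18), with the smallest p for the glucosidase Mogs (0.53 ± 0.14, SE), the receptor chaperone Mesd (0.39 ± 0.11) and the transmembrane thioredoxin Tmx2 (0.30 ± 0.088). Of 30 other degradation genes 11 were higher and 2 lower (median 0.20), led by Tmub1 (0.29 ± 0.070) and by Nploc4 (0.54 ± 0.15) and Vcp (0.48 ± 0.13), a cofactor and the ATPase that pulls chains from the membrane. Of 31 genes of translocation, signal peptidase and N-glycosylation 11 were higher and 0 lower (median 0.13), led by the signal recognition particle subunit Srp72 (0.40 ± 0.077), the oligosaccharyl transferase Stt3b (0.56 ± 0.11) and the receptor subunit Srpra (0.55 ± 0.14). Of 22 genes of ER to Golgi transport 13 were higher and 0 lower (median 0.26), led by the coat subunits Sec24c (0.51 ± 0.076), Sec13 (0.44 ± 0.067) and Sec24d (0.81 ± 0.15). Of 32 cytosolic and mitochondrial chaperones 14 were higher and 3 lower (median 0.29), led by the chaperonin subunits Cct4 (0.45 ± 0.075), Cct3 (0.52 ± 0.092) and Cct2 (0.32 ± 0.059). These counts stand beside 25.9% higher and 4.86% lower for all genes. With median-of-ratios scaling 11.5% of all genes were higher and 11.1% lower. The list counts then became 1 higher and 1 lower for folding, 2 and 3 for degradation and 4 and 0 for translocation. For transport they became 4 and 4, and for the other chaperones 7 and 3.

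**Figure D4:**
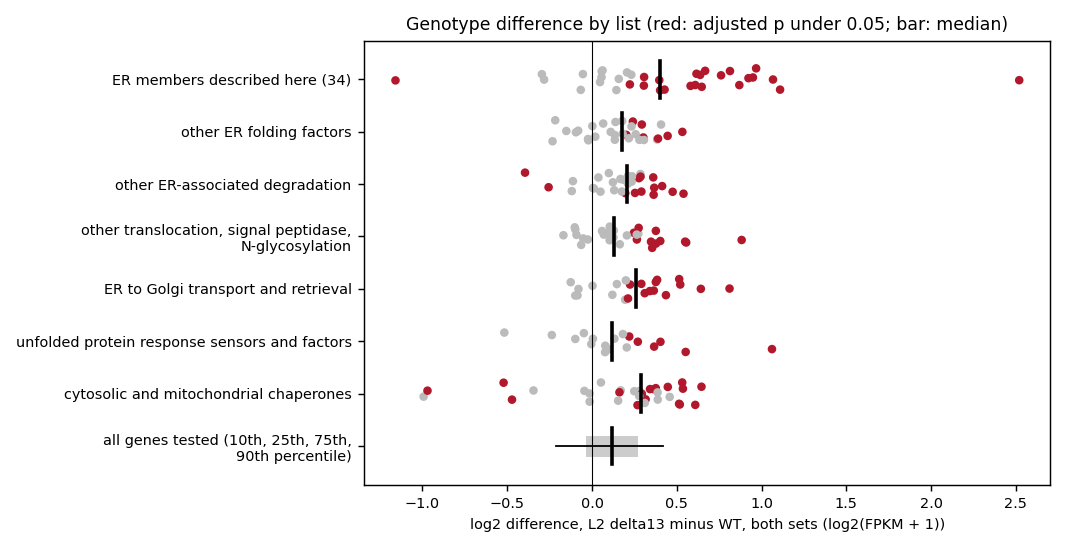
Each point is the log2 difference of 1 gene, L2 delta13 minus WT over both sets on the log2(FPKM + 1) scale, red where limma's adjusted p was under 0.05, and a bar marks the median of each list. The members have a median of 0.40 and the other lists medians between 0.12 and 0.29, beside 0.12 for all genes tested, drawn as the 10th to 90th percentile.

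Of 18 sensors and factors of the unfolded protein response that were tested, 6 were higher and 0 lower over both sets (median 0.12). Of all genes 25.9% were higher and 4.86% lower. With median-of-ratios scaling 3 were higher and 2 lower, where 11.5% and 11.1% of all genes were. The ER membrane factor Creb3 had 31.1, 34.2 and 37.5 FPKM in L2 delta13 set 2 against 20.8, 22.3 and 27.9 FPKM in WT set 2, and 25.3, 31.2 and 35.0 FPKM in L2 delta13 set 4 against 17.1, 18.8 and 27.0 FPKM in WT set 4. Its log2 difference was 0.55 ± 0.079 (SE, limma adjusted p = 2.11e-05), beside 1.06 ± 0.15 for the pseudokinase Trib3 and 0.37 ± 0.074 for the Atf6 relative Atf6b. Xbp1 had 0.40 ± 0.12 (SE, limma adjusted p = 0.0111), and a table of genes does not tell its spliced form from the unspliced. The sensors Ern1 (0.13 ± 0.23, SE), Eif2ak3 (-0.00 ± 0.14) and Atf6 (0.18 ± 0.14) and the factor Atf4 (-0.05 ± 0.12) were not called (limma adjusted p between 0.335 and 0.985).

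Among these factors Creb3l2 had effects of opposite sign in the sets. Creb3l2, an ER membrane factor of the Atf6 type, stood at 3.69, 4.40 and 6.13 FPKM in L2 delta13 set 2 against 1.74, 2.46 and 2.86 FPKM in WT set 2, and at 1.56, 1.84 and 2.51 FPKM in L2 delta13 set 4 against 2.26, 3.17 and 4.65 FPKM in WT set 4. Its log2 difference was 0.70 ± 0.12 (SE) in set 2 and -0.55 ± 0.12 in set 4, and the difference of these passed the test (-1.25 ± 0.18, limma adjusted p = 0.00113). Ddit3 (CHOP), a factor of the Eif2ak3 branch, stood at 3.83, 4.39 and 6.70 FPKM in L2 delta13 set 4 against 7.99, 13.3 and 18.4 FPKM in WT set 4, with a log2 difference of -1.27 ± 0.35 (SE, limma adjusted p = 0.0187) in set 4 and 0.24 ± 0.35 in set 2. The difference of its effects between sets did not pass the test (limma adjusted p = 0.363).

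Of the 29 members with a promoter window 9 held an ERSE, or 31.0%, beside 0.188% of the 8500 tested genes and 0.137% of all 27025 genes with such a window. These were Hspa5, Dnajc3, Creld2, Hsp90b1, Calr, Canx, Pdia6, Derl3 and Syvn1. Of these, 8 were among the members that rose over both sets. Among the 8, only Canx lost that call with either scaling and within the 16 libraries. Syvn1, whose ERSE starts 44 bases before the annotated start, was not called over both sets. Its log2 difference was 1.003 ± 0.28 in set 2, where it was called, and -0.54 ± 0.28 in set 4, where it was not. The set 2 call was kept with quantile normalization and lost with median-of-ratios scaling and with the replicate block. Of the 17 members with a window that rose, 8 held an ERSE, and of the 11 not called, 1 did. ERSE-II was found in 2 of the 29 members, Herpud1 and Dnajb11, beside 0.106% of tested genes, and the UPRE core in 2, Txndc5 and Txndc11, beside 0.976%. The element was first described in promoters of chaperone genes, so that members such as Hspa5, Hsp90b1 and Calr are not independent examples of it. Herpud1, which fell, and Dnajb11, which rose, share ERSE-II. A match says only that these letters stand in the window, and binding was not measured.

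**Figure D5:**
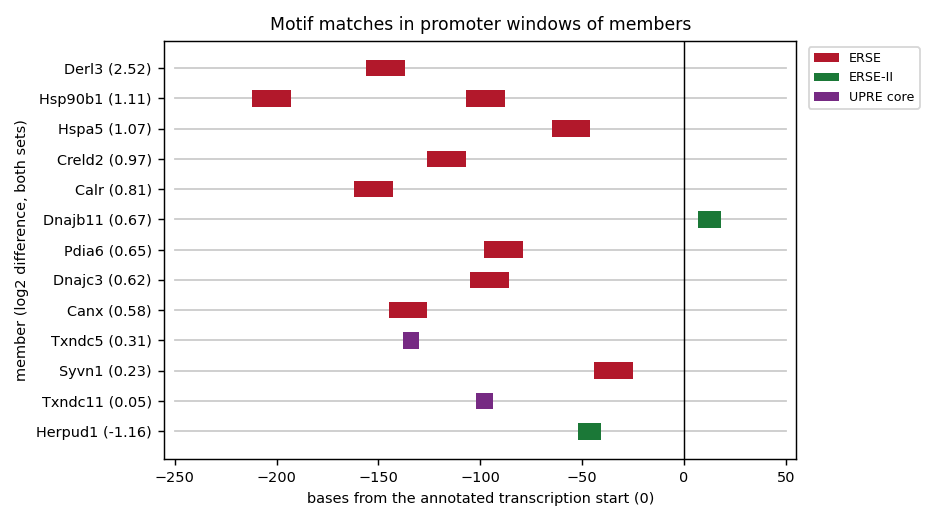
Positions of the motif matches of the 13 members that hold one, in bases from the annotated start (0), with ERSE in red, ERSE-II in green and the UPRE core in purple. Members are ordered by their log2 difference over both sets, given in brackets, from Derl3 at 2.52 to Herpud1 at -1.16. The first bases of the matches lie between 212 bases before and 8 bases after the annotated start.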

How the data were processed

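Liver RNA was sequenced as 24 libraries on a BGISEQ-500 from TRIzol extracts, per the labels' protocols. The submitters' processing notes name HISAT, Bowtie2, RSEM and build GRCm38.p5, without versions or roles. The deposited table holds FPKM values, which the authors made per gene, with no read totals, so the depth and the counting precision are unknown. The columns of all 24 libraries were used, none of no sample was present, and the libraries differed from each other in every pair. The members and all gene lists were chosen with earlier results of these data known.

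Values were taken as log2(FPKM + 1), genes with at least 1 FPKM in at least 6 libraries were kept (10532 of 18171), and limma 3.58.1 with a mean trend of the variance was fitted in R 4.3.3. Genotype over both sets came from a fit with set and genotype as terms, and all other contrasts from a fit with 1 mean per group. Tests were two-sided, with Benjamini-Hochberg adjustment over all genes tested within a contrast and a threshold of 0.05. The fits were tested on simulated data. Full values are given for the 16 members with the smallest p over both sets for the other members called in a contrast within or between sets and for Sec61a1, which was added, and means or ranges for the rest. For the other lists the 3 called genes with the smallest p are named, and Xbp1, Ern1, Eif2ak3, Atf6, Atf4, Ddit3 and Creb3l2 were named after their values were seen. Alternatives covered scaling, the pseudocount, filters, libraries left out, a library class term, array weights, the variance trend and the replicate numbers. Figures were drawn with matplotlib 3.10.9 in Python 3.11.15.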

Additional observations from a re-analysis of the deposited data

Results flagged for a closer look

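In 136 groups of 6 libraries, 1 for each member and group, the gap between the highest or the lowest library and the rest was large for its range in 16 groups, where chance gives about 1 in 20. The members share their libraries, so the 136 are not independent and 1 library can be counted many times. Of the 16, 7 concerned replicate 7 of WT set 4, which was the high library of its group for Hspa5 at 612 FPKM, Hyou1 at 71.6 FPKM, Sdf2l1 at 45.7 FPKM, Creld2 at 119.7 FPKM, Hsp90b1 at 359 FPKM, Pdia4 at 94.7 FPKM and Os9 at 88.5 FPKM. Without replicate 7, the set 4 log2 differences were 0.67 for Hspa5 (limma adjusted p = 0.0538), 0.57 for Pdia4 (limma adjusted p = 0.0334) and 0.54 for Dnajb11 (limma adjusted p = 0.0107). Dnajb11 is not among the 7, and those of Hyou1, Sdf2l1, Creld2, Hsp90b1 and Os9 are not given. In set 4, 10 members were then called higher, where 12.5% of all genes were, against 5 and 10.3% with all libraries. The library was picked for its high values, so leaving it out could only raise the differences of these genes. The added calls are therefore no separate support.

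Replicate 3 of L2 delta13 set 2 was the high library of its group for Derl3 at 167 FPKM, Syvn1 at 162 FPKM, Sec61b at 98.9 FPKM and Txndc11 at 35.4 FPKM, and the low one for Canx at 54.5 FPKM. It is the library with the highest sums of cholangiocyte, B cell, Kupffer, endothelial, stellate, T and NK cell and neutrophil markers. Its sum of hepatocyte markers was the lowest of all libraries. The part of these cells in these values was not tested. Single cases were Creld2 at 271 FPKM in replicate 5 of L2 delta13 set 2, Pdia6 at 175 FPKM and Derl3 at 26.4 FPKM in replicate 9 of L2 delta13 set 4, and the low Sec63 at 15.3 FPKM in replicate 6 of WT set 2.

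The genotype effect, set 4 minus set 2, was called lower in the test of the difference for Sdf2l1 (-1.81) and Manf (-1.66). In that test 0.123% of all genes were called lower. The call was kept for Sdf2l1 in 10 and for Manf in 8 of the 24 fits that left out a single library. Both calls were kept with array weights and with the library class term. Both were lost with no filter on low values and within the 16 libraries. They were also lost without the L2 delta13 set 2 libraries that held the most pancreas and cholangiocyte marker RNA.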

How the results depend on the processing

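The count of 21 members called higher over both sets (25.9% of all genes) became 22 with array weights (38.8%) and 20 with the replicate block (20.3%). It stayed at 21 with the library class term (29.6%), the filter in 12 libraries (26.5%) and no filter (14.9%). It also did with no variance trend (25.9%) and pseudocount 0.1 (26.4%). Quantile normalization (12.4%) and the 16 libraries (14.9%) gave 16, and median-of-ratios scaling gave 14 (11.5%). The 1 called lower became 3 with array weights (13.5% of all genes), 3 with quantile normalization, 3 without replicates 1 and 3 of L2 delta13 set 2 (chosen after seeing the data, 7.19%), and 4 with median-of-ratios scaling, and 1 to 3 with 1 library left out (4.03% to 7.85%). In set 2, 0 members were lower, against 2 with array weights (5.71%). In set 4, 18 members were higher and 7 lower with array weights (33.4% and 16.8% of all genes), 3 and 2 with the class term (9.88% and 2.77%), 2 and 4 with median-of-ratios scaling, 3 and 3 with quantile normalization, 3 and 1 with the replicate block (4.87% and 1.58%), 0 and 2 within the 16 libraries, and 2 to 11 higher and 1 to 2 lower with 1 library left out (5.45% to 19.2% and 2.0% to 3.98%). The difference of the genotype effect was lower for 5 members with array weights (2.56%), 6 with the class term (0.247%), 1 with median-of-ratios scaling (0.114%), 1 with quantile normalization (0.114%), 1 with the replicate block (0.0665%), 0 with no filter, 0 within the 16 libraries, 0 without replicates 1 and 3 (16, 25 and 17 at an unadjusted p under 0.05 by limma in these last, against 4.69%, 14.9% and 3.41% of all genes) and 0 to 3 with 1 library left out (0.038% to 0.152%). In L2 delta13 livers set 4 was lower for 9 members with median-of-ratios scaling (1.86%) and 12 to 16 with 1 library left out (2.5% to 7.61%), and in WT livers for 6 with array weights (10.8%). The cause of these shifts was not tested.

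Members whose sign over both sets reversed were not called in either case. Txndc11 was -0.0225 with array weights, -0.0889 with median-of-ratios scaling, -0.0594 with quantile normalization and -0.0354 without replicates 1 and 3. Ppib was -0.0340 with array weights and -0.0867 with median-of-ratios scaling. Ssr1 was -0.0735 and -0.0455 and Edem1 -0.0798 and -0.0468 with median-of-ratios scaling and quantile normalization. The replicate numbers were not taken as pairs. Deviations from the group means had correlations between -0.604 and 0.26 for same-numbered libraries of the 2 genotypes, over 12 pairs. Of these, 1 was most like its own number. Differences between whole libraries enter these correlations, which therefore cannot exclude a pairing. As a replicate block the numbers gave 20 members higher and 1 lower over both sets and 15 higher in set 2 (20.3%, 3.73% and 6.37% of all genes). The set 2 call of Syvn1 was absent there (limma adjusted p = 0.0536), and the comparisons of sets could not be had in that fit. The unknown read depth limits all values near 1 FPKM, such as Derl3 in WT livers.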
